A study of Mus musculus with 3 samples.

Results

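The 8 genes described here belong to the germ line and its piRNA pathway: Piwil2, Ddx4, Mael, Tdrd1, Tdrd12, Dazl, Sycp1 and Sycp3. They were chosen by symbol, as the non-control probes whose gene name, read from 1 of the 3 array files, equals that symbol. This found 7 of the 8 genes with 9 probes. Tdrd12 carries the older name 2410004F06Rik on the array and was found through its RefSeq transcript, with 2 more probes, so 11 of 41174 probes and 8 of 27531 gene labels are covered. Gene expression was measured on 1-colour Agilent arrays in 3 mouse cell samples, 1 array each: embryonic stem (ES) cells, embryonic fibroblasts (MEF) labelled p53-null, and MEF whose p53 status the series design gives as wild type. All 3 carried a Nanog-GFP reporter, a fluorescent marker of the pluripotency gene Nanog, and no other treatment is labelled. The labels do not give the p53 allele, the embryo age, the passage or the number of embryos behind each culture. With 1 array per group there is no replicate, so no test between samples was possible and every difference describes these arrays.

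In germ cells, Piwi proteins loaded with piRNAs, a class of small RNAs, silence transposons, and Tudor domain proteins gather them with their partners in cytoplasmic granules. Synaptonemal complex proteins join paired chromosomes in meiosis, and Dazl binds germ cell messenger RNAs to control their translation. In mouse somatic cells many such genes are silenced through methylation of CpG-rich promoters. In mouse ES cells a non-canonical Polycomb complex also represses germ line genes, recruited by E2f6, which binds TCCCGC-type sites, and by Mga with Max, which bind the E-box CACGTG.

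Promoters are shown because all members were highest in ES cells, and because these motifs are the ones known from that repression. RefSeq windows of assembly GRCm38.p6, from 250 bases before to 50 bases after the annotated start, were given for 7 of the 8 genes. Piwil2 was not among them. Capitals mark CACGTG and, on either strand, TCCCGC, which reads GCGGGA when found on the opposite strand. CACGTG reads the same on both strands, and no marked motifs overlap in the windows shown. The windows of 4 members that hold both motifs, and that of Dazl, which holds neither, read 5′ to 3′ on the gene's strand.
Mael: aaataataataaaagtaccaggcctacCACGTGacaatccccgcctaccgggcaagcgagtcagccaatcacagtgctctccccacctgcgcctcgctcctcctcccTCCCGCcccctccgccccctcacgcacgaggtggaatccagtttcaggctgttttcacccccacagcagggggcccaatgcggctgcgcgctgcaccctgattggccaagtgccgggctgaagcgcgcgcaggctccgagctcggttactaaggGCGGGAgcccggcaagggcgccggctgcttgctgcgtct
Ddx4: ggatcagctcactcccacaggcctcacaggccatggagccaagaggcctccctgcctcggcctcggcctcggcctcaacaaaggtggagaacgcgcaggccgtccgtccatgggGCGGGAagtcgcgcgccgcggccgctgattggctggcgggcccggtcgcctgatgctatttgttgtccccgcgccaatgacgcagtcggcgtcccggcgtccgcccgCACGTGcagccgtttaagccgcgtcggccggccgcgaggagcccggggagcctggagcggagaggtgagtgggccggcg
Sycp1: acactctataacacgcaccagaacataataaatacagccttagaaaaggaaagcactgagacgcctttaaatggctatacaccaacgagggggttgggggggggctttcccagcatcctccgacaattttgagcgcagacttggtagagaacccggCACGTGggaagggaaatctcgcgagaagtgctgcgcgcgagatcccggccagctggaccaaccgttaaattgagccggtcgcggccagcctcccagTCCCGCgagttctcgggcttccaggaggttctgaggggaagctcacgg
Sycp3: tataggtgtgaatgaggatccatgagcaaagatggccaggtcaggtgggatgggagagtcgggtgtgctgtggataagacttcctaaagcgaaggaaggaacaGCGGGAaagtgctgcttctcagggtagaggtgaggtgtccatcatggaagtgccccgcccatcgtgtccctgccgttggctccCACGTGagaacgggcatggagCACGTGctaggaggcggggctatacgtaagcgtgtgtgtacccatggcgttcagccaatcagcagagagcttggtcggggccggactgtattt
Dazl: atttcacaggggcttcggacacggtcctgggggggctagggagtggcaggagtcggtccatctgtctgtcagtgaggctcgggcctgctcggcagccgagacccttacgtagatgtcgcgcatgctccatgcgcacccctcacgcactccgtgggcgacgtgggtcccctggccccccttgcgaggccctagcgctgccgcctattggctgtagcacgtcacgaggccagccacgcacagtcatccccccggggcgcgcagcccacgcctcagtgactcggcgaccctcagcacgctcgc
The windows lie at chr1:166238695-166238994 (minus strand) for Mael, chr13:112652261-112652560 (minus) for Ddx4, chr3:102936051-102936350 (minus) for Sycp1, chr10:88459337-88459636 (plus) for Sycp3 and chr17:50293571-50293870 (minus) for Dazl. Mael has 1 E-box and 2 TCCCGC-type motifs, Sycp3 has 2 E-boxes and 1 TCCCGC-type motif, and Ddx4 and Sycp1 have 1 of each.

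CACGTG was present in 5 of 7 member promoters, the fifth being Tdrd1, against 7.24% of 27025 mouse promoters of the same length, taking the first listed start of each gene. TCCCGC in either orientation was present in 4 of 7, against 20.0% of all promoters. Both motifs stood in 4 of 7, against 2.05%. Member promoters held 11 to 38 CpG, with a median of 21, against a median of 7 over all promoters. Among the 11331 promoters with at least 11 CpG, 11.2% held CACGTG, 41.5% held TCCCGC and 4.57% held both. Of the 3 listed starts of Tdrd1, 2 had a window with CACGTG, and neither listed window of Tdrd12 had either motif. These counts describe letters in the windows and say nothing of binding or methylation, which the arrays did not measure. In the wider lists described below, CACGTG stood in 9 of 21 piRNA pathway promoters, 6 of 22 germ cell specification promoters, 7 of 29 meiosis promoters and 2 of 19 promoters of repressor genes. TCCCGC stood in 7, 8, 17 and 8 of the same promoters, and both motifs in 3, 3, 6 and 1. All of these lists but that of repressor genes include members, so their counts overlap with those above.

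Trp53, the gene of p53, was at 4902 units in ES cells, 56.3 in p53-null MEF and 1304 in MEF, and the p53-null MEF signal was 29.1-fold below that of MEF. The 75th percentile of the processed signal was 834 units for ES cells, 1040 for p53-null MEF and 829 for MEF, and 26198 to 27954 of 43379 non-control spots were well above background by the scanner software's mark. The lowest signal so marked was 10.9 units for ES cells, 16.0 for p53-null MEF and 12.4 for MEF, and values near or below these levels are not resolved. The ES cell and MEF arrays shared 1 slide and 1 scan, while the p53-null MEF array was on another slide, with a median local background of 44 units against 27 on the other arrays. Xist was well above background on the p53-null MEF array alone, and the Y chromosome gene Ddx3y on the ES cell and MEF arrays alone. Slide, scan, embryo sex and p53 genotype therefore cannot be told apart between the fibroblast arrays.

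The samples carried the markers of their labels. All 5 pluripotency markers were well above background in ES cells, and of these only Sox2 was so in p53-null MEF and MEF. The 5 fibroblast markers were bright in both fibroblast samples, and each was lower in ES cells by 5-fold or more. Col1a1, a collagen gene, was at 1263 units in ES cells, 105347 in p53-null MEF and 82041 in MEF. Pou5f1, the gene for Oct4, was at 9504 units in ES cells and not well above background in either fibroblast sample.

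**Figure D1:**
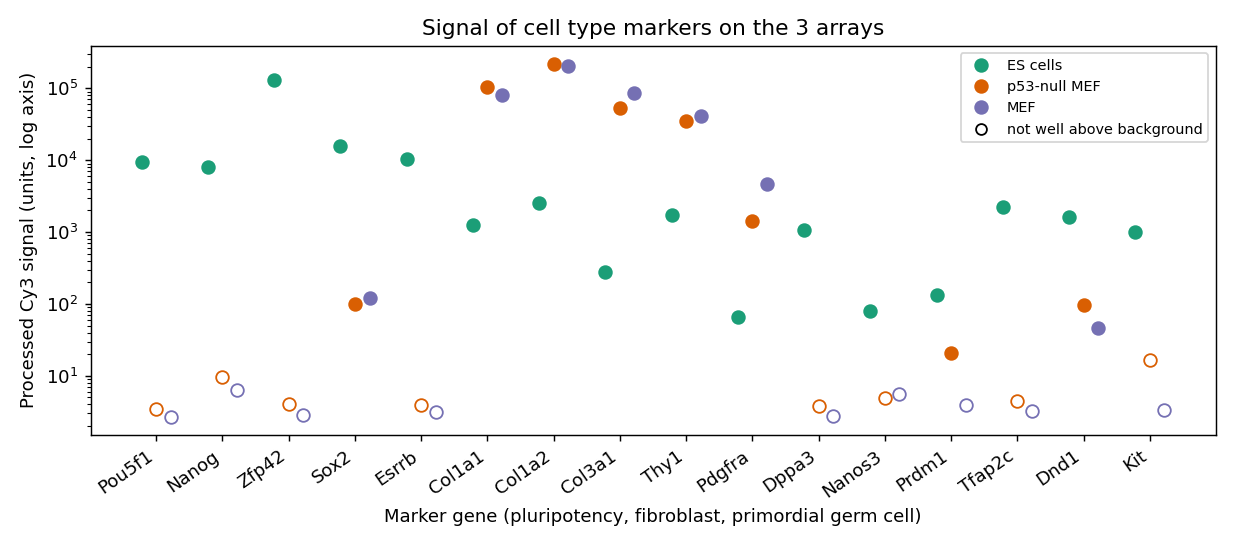
Processed Cy3 signal (log axis) of pluripotency, fibroblast and primordial germ cell marker genes on the ES cell, p53-null MEF and MEF arrays, 1 point per array. Filled points were well above background and open points were not. All 6 primordial germ cell markers on the array were well above background in ES cells, 2 in p53-null MEF and 1 in MEF.

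All 8 genes were well above background in ES cells, 4 were so in p53-null MEF (Piwil2, Ddx4, Tdrd1 and Tdrd12) and 3 in MEF (Ddx4, Tdrd12 and Dazl). The comparison of ES cells with MEF sets pluripotent cells beside somatic ones, and signals are scaled to each array's 75th percentile before folds are taken. ES cells exceeded MEF by 2-fold or more for all 8 genes, and for 32.7% of the 18743 gene labels resolved on either array, while 27.1% were lower by as much and 0 members were. By 5-fold or more, 7 of 8 were higher, against 13.1% of all gene labels (13.0% were lower), and the exception was Ddx4. Their median log2 difference was 4.34, beside 0.20 over all gene labels. Of the 8 differences, 3 were measured on both sides and 5 are bounds, because the MEF signal was not well above background. These are given as "at least", except for Tdrd1, whose MEF signal exceeded the lowest resolved signal and was used as it stood. The direction of a bound, here and below, is fixed by the sample in which the gene was resolved. In these bulk samples, fewer cells expressing a gene and less RNA per cell cannot be told apart.

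**Figure D2:**
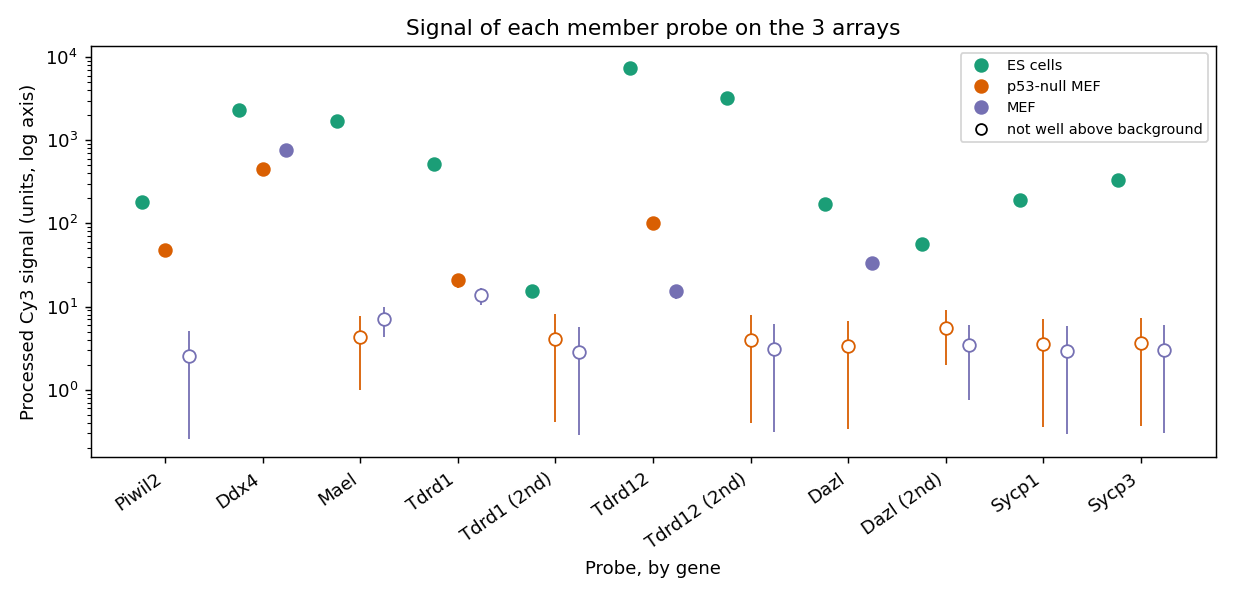
Processed Cy3 signal (log axis) of all 11 member probes on the ES cell, p53-null MEF and MEF arrays, 1 point per array, with the scanner software's error model as bars (1 SD, lower bars cut short on the log axis). Filled points were well above background and open points were not. Each probe was highest in ES cells, and Ddx4 was above 400 units on all 3 arrays.

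Piwil2 encodes MILI, a Piwi protein that binds piRNAs in mouse germ cells. Its probe, at chr14:69107770-69107829 of build mm8 on transcript NM_021308, gave 179 ± 18.1 units in ES cells, 48.5 ± 5.93 in p53-null MEF and 2.58 in MEF, the last not well above background. Here and below, ± is the error model's SD for a signal and its standard error for a log2 difference. It is a technical error and holds no spread between samples. Piwil2 is reported by this probe alone. Its signal was at least 14.4-fold higher in ES cells than in MEF. The p53-null MEF signal lay between the others.

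Ddx4, also called Vasa or Mvh, encodes an RNA helicase of germ cell granules and is a standard germ cell marker. Its probe at chr13:113719286-113719345 gave 2320.2 ± 232 units in ES cells, 451 ± 45.3 in p53-null MEF and 758 ± 75.9 in MEF. ES cells were higher than MEF by 1.61 ± 0.20 on the log2 scale, or 3.04-fold, the smallest difference of the 8 genes. Both fibroblast signals were far above the lowest resolved signal of their arrays, unlike those of the other members. A single probe reports this gene, so no other probe bears on the fibroblast signal.

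Mael, the Maelstrom gene, acts in piRNA production and transposon silencing. Its probe at chr1:168038127-168038186 gave 1717 ± 172 units in ES cells, 4.36 in p53-null MEF and 7.01 in MEF. Neither fibroblast signal was well above background, and ES cells were at least 138-fold higher than MEF.

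Tdrd1 and Tdrd12 encode Tudor domain proteins of the piRNA machinery, which recognise methylated arginines or support the loading of piRNAs. The brighter Tdrd1 probe, at chr19:56923160-56923219 on transcript NM_001002241, gave 522 ± 52.2 units in ES cells, 20.8 ± 4.12 in p53-null MEF and 13.7 in MEF. The ratio of these signals between ES cells and MEF is 37.9-fold. The MEF signal was not well above background although it exceeded the lowest resolved signal, so this is not a strict lower bound. The other Tdrd1 probe is assigned to transcript variant NM_031387 and its alignment runs over 482 bases, chr19:56919230-56919711. It was dim in ES cells as well, at 15.6 ± 2.80 units, and at background in both fibroblast samples. The Tdrd1 difference therefore rests on the first probe, the second giving only at least 1.25-fold.

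For Tdrd12 both probes were bright in ES cells. The probe at chr7:35202387-35202446 gave 7382 ± 738 units in ES cells, 100.1 ± 10.5 in p53-null MEF and 15.2 ± 2.99 in MEF, a log2 difference of 8.91 ± 0.32 between ES cells and MEF, or 481-fold. The MEF signal was close to the limit of 12.4 units, so this fold is uncertain. The second probe, whose alignment spans chr7:35230791-35232748, gave 3206 ± 321 units in ES cells, 3.96 in p53-null MEF and 3.1 in MEF. There ES cells were at least 258-fold higher than MEF, and neither fibroblast sample was well above background.

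Dazl was resolved in MEF but not in p53-null MEF. Its brighter probe, at chr17:49745165-49745224, gave 169 ± 17.1 units in ES cells, 3.33 in p53-null MEF and 33.5 ± 4.24 in MEF. ES cells were higher than MEF by 2.33 ± 0.23 on the log2 scale, or 5.02-fold, just past the 5-fold limit, and 2.10 with median scaling, 2.16 with quantile normalization, 2.26 with the mean of its probes and 1.20 with normexp correction, all below that limit. The second Dazl probe, at chr17:49753199-49753345, gave 56.6 ± 6.10 units in ES cells, 5.52 in p53-null MEF and 3.42 in MEF. It placed MEF at background and ES cells at least 4.55-fold higher, so the 2 probes disagree on whether MEF hold a resolved Dazl signal.

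Sycp1 forms the transverse filaments of the synaptonemal complex and Sycp3 its lateral elements. The Sycp1 probe, aligned over chr3:102982535-102983206, gave 189 ± 19.0 units in ES cells, 3.57 in p53-null MEF and 2.92 in MEF. The Sycp3 probe, aligned over chr10:87899402-87902492, gave 336 ± 33.7 units in ES cells, 3.63 in p53-null MEF and 3.0 in MEF. Both genes were at background in both fibroblast samples. They were at least 15.2-fold and at least 27.0-fold higher in ES cells than in MEF.

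Set against p53-null MEF, ES cells were higher by 5-fold or more for 7 of 8 genes, as were 8.65% of 18421 gene labels, with 0 members and 10.4% of gene labels lower. By 2-fold or more all 8 were higher, beside 26.8% of gene labels higher and 23.7% lower, and this comparison shares the ES cell array with the one above. The exception here was Piwil2, at 4.62-fold, or 2.21 ± 0.23 on the log2 scale. Ddx4 was 6.42-fold, Tdrd1 31.3-fold and Tdrd12 92.0-fold higher in ES cells than in p53-null MEF, all measured on both sides. The other 4 were bounds, from at least 13.2-fold for Dazl to at least 134-fold for Mael.

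Between the fibroblast samples, whose labels differ in p53 status, members went both ways. Of 8 genes, 5 were well above background on at least 1 fibroblast array. In p53-null MEF 2 of them exceeded MEF by 2-fold or more, as did 18.6% of 17397 gene labels. Another 2 were lower by as much, as were 16.6%, and Tdrd1 gave a difference below 2-fold. Mael, Sycp1 and Sycp3 were at background on both arrays and have no fold. The median log2 difference of the 5 was 0.28, which is the value of Tdrd1, beside 0.03 over all gene labels.

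Tdrd12, the only member at least 5-fold different between the fibroblasts (3.35% of gene labels were higher by as much and 3.05% lower), was 5.23-fold higher in p53-null MEF, or 2.39 ± 0.32 on the log2 scale. Its second probe was at background on both fibroblast arrays and does not show this difference. For Piwil2 the p53-null MEF signal was higher by at least 3.12-fold. Ddx4 was lower by 1.08 ± 0.20 on that scale, a log2 difference of -1.08 or 2.11-fold, and Dazl was at least 2.62-fold lower at its brighter probe, with both arrays at background at the other. For Tdrd1 the 2 signals themselves gave 1.21-fold higher, from 20.8 ± 4.12 units in p53-null MEF and 13.7 ± 3.16 in MEF. The MEF signal was not well above background but exceeded the lowest resolved signal, so this is not a strict lower bound. Both signals lie near the limits of their arrays, so the difference is uncertain. With scaling on spike-in spots, the median over all gene labels moved to 1.86. Ddx4 was then instead higher in p53-null MEF by 0.76 and Tdrd1 by 2.11 on the log2 scale, and Dazl had no fold.

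**Figure D3:**
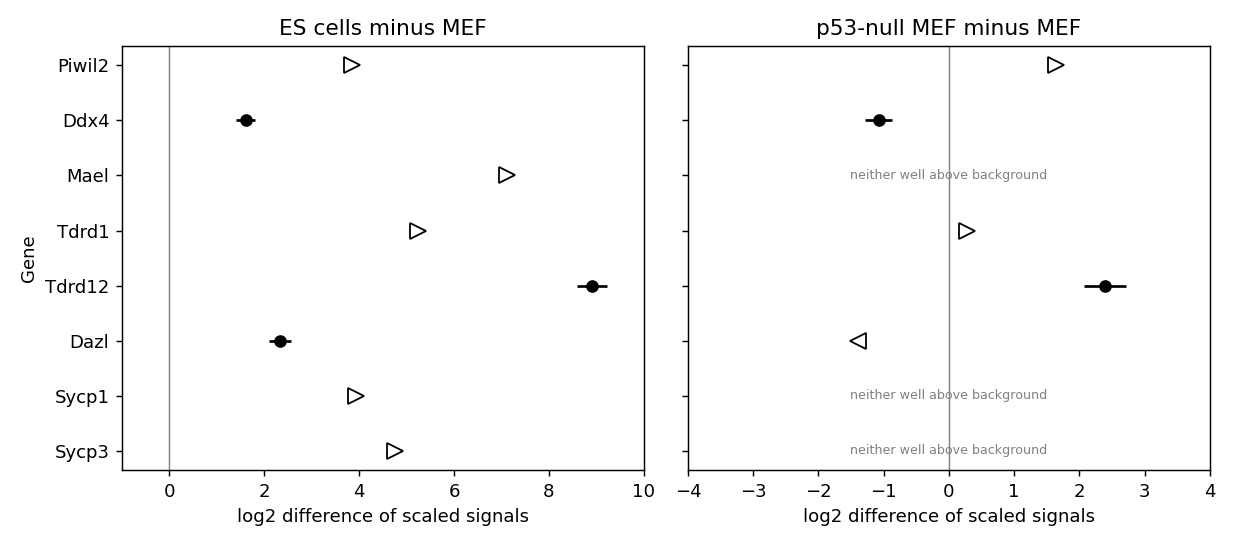
Log2 difference of scaled signals for each member at its brighter probe, ES cells minus MEF on the left and p53-null MEF minus MEF on the right. Filled points with bars are differences measured on both sides with the error model's standard error, and 3 genes have no value on the right. Open triangles are bounds pointing away from 0, but for Tdrd1 they mark the ratio of its own signals. All 8 genes lie above 0 on the left, while values on the right run from -1.39 to 2.39.

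Markers of primordial germ cells, the embryonic founders of the germ line, were checked beside these values. Their signals summed to 7.34 times the 75th percentile in ES cells, 0.143 times in p53-null MEF and 0.0795 times in MEF. Dppa3, Nanos3, Tfap2c and Kit were not well above background in either fibroblast sample. Dnd1, which protects germ cell messenger RNAs, was at 1641 units in ES cells, 97.4 in p53-null MEF and 47.0 in MEF, and Prdm1 at 135 units in ES cells, 21.1 in p53-null MEF and 3.95 in MEF. Of 4 gonad somatic markers, Amh and Gata4 were at background on all 3 arrays. Sox9, which many mesenchymal cells express, was at 324 units in ES cells, 2575 in p53-null MEF and 2272 in MEF. Nr5a1 was dim but well above background in ES cells, at 20.6 units, and in MEF, at 20.4. In p53-null MEF it was at 13.0 units and not well above background. The 4 gonad markers summed to 0.432 times the 75th percentile in ES cells, 2.51 times in p53-null MEF and 2.78 times in MEF. Most of this sum was Sox9 on all 3 arrays. Macrophage markers, of which 2 of 4 were resolved in ES cells, 2 in p53-null MEF and 4 in MEF, summed to 0.640, 0.237 and 2.63 times in that order of samples. Most of the macrophage sum came from Lyz2 in MEF, at 1980 units, and from Cd68 in ES cells, at 466 units. At the Lyz2 probe summed, the log2 difference from MEF was -5.00 in ES cells and -4.30 in p53-null MEF. At another Lyz2 probe it was only -0.86 and -0.51, so these sums depend on the probe used. Endothelial markers, of which 2, 1 and 1 of 3 were resolved, summed to 0.309, 0.631 and 0.252 times. In the fibroblasts this sum was nearly all Kdr, at 646 units in p53-null MEF and 203 in MEF. Cdh5 was at background on all 3 arrays, and Pecam1 was resolved in ES cells only. The part of such cells in the fibroblast signals of Ddx4, Dazl, Piwil2 and Tdrd12 was not tested.

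A wider list of 26 piRNA pathway genes, which holds 5 of the 8 members, was read the same way. Of 22 genes well above background in ES cells or MEF, 19 exceeded MEF by 2-fold or more in ES cells, 1 was lower and 2 were neither, with a median log2 difference of 3.76. Over all gene labels 32.7% were higher and 27.1% lower, and 13 of the 22 values are bounds. The bounds come from genes resolved in 1 of these samples only, which fixes their direction. Morc1, needed for transposon silencing in the male germ line, was at least 574-fold higher, at 7145 units in ES cells against 3.15 in MEF. Another Morc1 probe was not well above background in either sample and gave no fold. Tex19.1, which restrains transposons in germ cells and placenta, was 310-fold higher, at 18133 units in ES cells and 58.2 in MEF. Tdrd7, a Tudor gene also used in the lens, went the other way and was 18.1-fold lower, at 609 units in ES cells and 10942 in MEF. Exd1 differed by 0.64 on the log2 scale, Tdrd9 gave no fold, and Piwil1, Tdrd6, Asz1 and Mybl1 were at background on both arrays.

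Between the fibroblasts, 3 of 12 resolved piRNA pathway genes were higher in p53-null MEF by 2-fold or more and 3 lower, near the 18.6% higher and 16.6% lower of all gene labels. The third higher gene, beside Tdrd12 and Piwil2, was Pld6, the mitochondrial nuclease gene of piRNA formation, at 66.6 units in p53-null MEF and 25.5 in MEF, or 2.08-fold. Tex19.1 was at least 4.56-fold and Exd1 2.56-fold lower, beside Ddx4. All these folds rest on the 75th percentile scaling.

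Of 29 meiosis and synaptonemal complex genes resolved in ES cells or MEF, out of 31 on the array, 25 were higher in ES cells by 2-fold or more and 4 lower, the median log2 difference being 2.94. The shares over all gene labels were 32.7% higher and 27.1% lower, and 16 of these 29 values are bounds. The direction of these bounds was fixed by the sample in which the gene was resolved. Syce1, a central element gene of the synaptonemal complex, was 330-fold higher, at 4949 units in ES cells and 14.9 in MEF, the MEF value being near the limit. The meiotic cohesin genes Stag3 and Smc1b were 51.7-fold and at least 37.9-fold higher, and Tex14, of germ cell bridges, at least 36.9-fold, although a second Tex14 probe gave no fold. The 4 lower genes were Brdt, a bromodomain gene of spermatogenesis, at 3.67-fold, Msh5 and Spo11, at least 3.01-fold and at least 2.72-fold, and Hspa2 at 2.59-fold. Msh5 and Spo11 were dim in MEF, at 30.2 and 27.3 units. Their other probes were not well above background in ES cells or MEF.

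Between the fibroblasts, 5 of 17 resolved meiosis genes were higher in p53-null MEF by 2-fold or more and 3 lower, against 18.6% and 16.6% of all gene labels. Mns1, which is also a gene of motile cilia, was 8.83-fold higher, at 6688 units in p53-null MEF and 604 in MEF. Syce2 was 4.28-fold higher, and Psmc3ip, a partner of the recombinases, 3.49-fold, or 2.66 on the log2 scale at another probe. Rec114 was at least 3.08-fold lower. Hspa2 was 2.36-fold and Spo11 at least 2.14-fold lower. Rec114 and Spo11 each have another probe, which was at background on both fibroblast arrays and does not show the difference. Sycp1 and Sycp3 themselves remained at background in both.

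Of 22 resolved genes of germ cell specification and RNA binding, 17 were higher in ES cells by 2-fold or more and 4 lower, the median log2 difference being 2.86. Over all gene labels 32.7% were higher and 27.1% lower, and 14 of these 22 values are bounds, with a direction fixed by the sample that resolved the gene. Tfap2c, a factor of primordial germ cell specification, was at least 178-fold higher, Dppa3 at least 85.2-fold, Kit at least 79.9-fold and Dnd1 34.7-fold. Gfra1, a receptor subunit of spermatogonial stem cells and neurons, was at least 8.49-fold lower, Cpeb1 4.40-fold, Ifitm3 3.60-fold and Zar1 at least 2.27-fold. Between the fibroblasts 1 of 11 was higher in p53-null MEF by 2-fold or more, Zar1 at 3.35-fold, and 4 were lower, Dazl, Cpeb1 at 2.93-fold, Ybx2 at 2.70-fold and Ifitm3 at 2.62-fold, beside 18.6% of all gene labels higher and 16.6% lower.

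**Figure D4:**
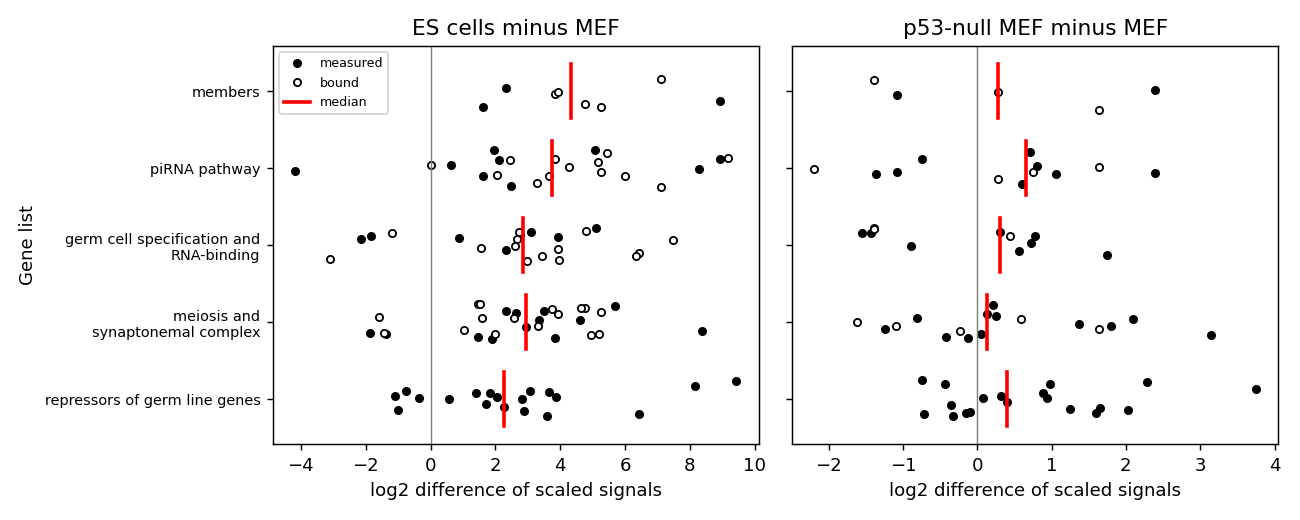
Log2 difference of scaled signals for each gene of the members and of 4 wider lists, ES cells minus MEF on the left and p53-null MEF minus MEF on the right. Filled points were measured on both sides, open points are bounds, and red lines are list medians. On the left the medians run from 2.26 to 4.34, and on the right from 0.13 to 0.66.

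Of 19 genes known to repress germ line genes, all measured on both sides, 14 were higher in ES cells by 2-fold or more and 2 lower, the median log2 difference being 2.26, beside 32.7% higher and 27.1% lower over all gene labels. Mga was at 4229 units in ES cells, 1758 in p53-null MEF and 288 in MEF, which is 14.6-fold higher in ES cells and 4.86-fold higher in p53-null MEF than in MEF, although another Mga probe differed by only 0.98 on the log2 scale between the fibroblasts. E2f6 was at 5351 units in ES cells, 14320.4 in p53-null MEF and 10776 in MEF, or 2.03-fold lower in ES cells, with -2.73 on the log2 scale at another probe. Max differed by -0.75 and Ehmt2 by -0.35 between ES cells and MEF. Between the fibroblasts 6 of 19 were higher in p53-null MEF by 2-fold or more and 0 lower at their brightest probes, beside 18.6% and 16.6% of all gene labels, led by Hells, a chromatin remodeller of DNA methylation, at 13.4-fold, with Uhrf1 at 4.08-fold. In ES cells against MEF the DNA methylation genes Dnmt3l, Dnmt3b and Hells were 692-fold, 287-fold and 85.5-fold higher, and Ring1 was 2.15-fold lower. Between the fibroblasts another Ring1 probe gave -1.86 on the log2 scale, and 1 other probe of Atf7ip was also lower by over 2-fold. Some genes of the other lists matched no gene label with a value and were not analysed here. They were Prdm14, Sohlh1, Zbtb16 and Rpl10l of the germ cell list, and Rad21l and Stra8 of the meiosis list.

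The 5 genes outside these lists whose 3 scaled signals lay nearest the members' median signals, by Euclidean distance in log2 units over 3 arrays, were Ovol2 (0.532), Fam178b (0.620), Slc4a5 (0.628), Zcwpw1 (0.660) and Tcstv3 (0.719). The members themselves lay 1.27 (Tdrd1) to 8.74 (Ddx4) from that median, with Tdrd12 at 5.39. The signals were not centred per gene, so the distance also ranks genes by the brightness of their probes, which is not comparable between genes, and the difference of these 5 genes between samples is fixed by how they were chosen.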

How the data were processed

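Cy3-labelled total RNA of each group went onto 1 Agilent array, per the labels. The authors' deposited scanner files hold intensity values on a linear scale from Agilent Feature Extraction 9.5.3.1, spatially and multiplicatively detrended within each array with local background correction switched off, per the file headers, and not scaled between arrays. The deposited value table holds the same intensities (ratios 0.995 to 1.005, column medians 50.0 for ES cells, 51.8 for p53-null MEF and 43.2 for MEF, no log and no centring, no direction). Per array, log2 of the processed signal minus its 75th percentile was taken, 1639 control spots and 62 to 192 outlier spots were left out, and spots of a probe were averaged. A probe counted as well above background if 50% or more of its kept spots carried that mark. The brightest probe stood for a gene. A dim signal was replaced by the higher of itself and the array's lowest resolved signal. Probes were named through RefSeq (24496 by transcript, 6234 by symbol, 2386 by synonym, 8058 keeping the design's name). Gene names and probe positions were read from the annotation of the p53-null MEF array, which is on mm8. The annotation of the ES cell and MEF arrays is on mm7, with the same probe names at each spot. Exons and untranslated regions under the probes were not looked up. Limma 3.58.1 (R 4.3.3) gave the normexp alternative. The fold counting was tested on data simulated from MEF signals well above background. Bounds and dim signals were not part of that test.

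Named genes were all members, up to 4 genes at each end of each wider list for ES cells against MEF, up to 3 in each direction at least 2-fold different between fibroblasts, the 5 nearest patterns, and cell type markers. Genes listed as at background on both arrays were named after their values were seen. The members, lists and motifs were chosen with earlier results of these data known. The number of arrays limits the precision.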

Additional observations from a re-analysis of the deposited data

How the results depend on the processing

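In ES cells against MEF, all 8 members kept a positive difference under each of the 8 alternatives: normexp correction, median scaling, quantile normalization, no scaling, spike-in scaling, the mean of all probes, no filter on dim probes, and every spot well above background. Their median of 4.34 became 2.28 with normexp, 4.59 with spike-ins, 3.89 with the mean of all probes and 6.06 without the filter, and the count at least 5-fold higher was 4 in place of 7 with normexp and 6 with median scaling, quantile normalization and the mean of all probes. Normexp adds an offset of 50 units, which by construction shrinks ratios of dim signals. Several alternatives could change little. Each member probe has 1 spot, so asking for every spot well above background could not alter a value. The mean of all probes could not for genes with 1 probe. Without scaling little moves, as the 75th percentiles were 834 units for ES cells and 829 for MEF. Where the filter was kept, bounds of genes resolved in ES cells alone could not fall below 0.

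In p53-null MEF against MEF, the median of 0.28 became 0.00 with normexp, 0.61 without scaling, 2.11 with spike-ins and -0.045 without the filter. With normexp 0 members were at least 2-fold higher and 0 lower. The count at least 2-fold lower, 2 as reported, was 1 without scaling, 0 with spike-ins and 3 without the filter, and the count at least 2-fold higher, also 2, was 3 with spike-ins. Ddx4 turned from -1.08 to 0.76 with spike-ins. Over the same alternatives Tdrd12 ran from 0.86 to 4.22 and Piwil2 from 0.63 to 3.90. The median over all gene labels was 0.03 in this comparison, 0.36 without scaling and 1.86 with spike-ins, and in ES cells against MEF 0.20, 0.00 with median scaling, 0.01 with quantile normalization, 0.45 with spike-ins and -0.17 without the filter. The causes were not tested. No paired analysis was possible because each group has 1 array and the labels carry no replicate numbers, and no slide block could be fitted. Signals near 10.9 to 16.0 units limit what is resolved.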
